A study of Bos taurus with 9 samples.

Results

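Endometrial epithelial markers are the 5 genes EPCAM, CDH1, SPINT2, KRT8 and KRT18, whose transcripts mark the epithelial cells among the stromal cells of the uterine lining. They were taken as every probe set whose array annotation gives 1 of these symbols alone, which found 6 probe sets, 2 for CDH1 and 1 for each of the others, among 24016 tested probe sets and 9155 named genes. The samples were co-cultures of bovine endometrial cells, 3 parts stromal to 1 part epithelial, from Holstein/Polish Black and White cows slaughtered on days 2 to 5 of the oestrous cycle. All cultures had been moved to medium with bovine serum albumin in place of calf serum and were exposed for 6 h to PBS (control), to lysophosphatidic acid (LPA, 1e-06 M) or to LPA plus interferon tau (LPA+IFNt, 1000 antiviral units of interferon, no volume given), with 3 arrays in each group. Each array held a pooled sample given as n = 3, and the study used 9 cows in all, so if n counts cows the pools share them. P-values therefore measure the spread between these pools. Cultures exposed only to interferon tau were not analysed here.

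An epithelium is a sheet of cells joined side by side, and these genes, apart from SPINT2, encode adhesion proteins or parts of the skeleton behind the joint. CDH1 encodes E-cadherin, which holds neighbouring cells together at adherens junctions and is tied to actin through catenins. EPCAM encodes a cell surface adhesion protein of epithelia. SPINT2 encodes a Kunitz-type inhibitor of serine proteases that restrains the membrane protease matriptase, for which EPCAM protein is a known target. KRT8 and KRT18 encode the type II and type I keratins that pair to form the intermediate filaments of simple epithelia. In the RefSeq table of ARS-UCD2.0 the KRT18 and KRT8 genes are direct neighbours, with 0 protein-coding genes between them. In ruminants the uterine epithelium is the surface to which the embryo attaches, and interferon tau is the signal by which the embryo makes itself known to the mother.

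A probe set is a group of short array probes for 1 transcript. Levels are log2 values from RMA, in which 1 unit is a doubling, and levels of different probe sets cannot be ranked against each other. The 3 control probe sets for a bacterial trp transcript, which the cells do not make, reached at most 2.80 and served as a floor. The array maxima lay between 15.58 and 15.66. All 6 member probe sets lay above the floor on every array, 5 of them by at least 4.22 in any array and KRT8 by 0.47 to 0.66. EPCAM, CDH1, SPINT2 and KRT18 were thus detected in every culture, while KRT8 gave a value only slightly above the floor. In a mixed culture this does not show which cells the transcripts came from.

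Over the 3 comparisons, 2 differences passed the threshold, an adjusted p under 0.05 over all tested probe sets. CDH1 rose by 0.21 with LPA+IFNt against control, and SPINT2 fell by 0.45 with LPA+IFNt against LPA. Between LPA and control 0 of the 6 probe sets passed, against a background of 0.0708% of all probe sets (17 of 24016). Of the 6, 4 had an unadjusted p under 0.05, against 8.3%. Both CDH1 probe sets were among these 4, which are therefore not 4 separate genes. With LPA+IFNt against control 1 of 6 passed as higher and 0 as lower, against backgrounds of 2.48% higher and 2.86% lower. With LPA+IFNt against LPA 0 of 6 passed as higher and 1 as lower, against 2.56% and 3.98%. The median difference over the 6 probe sets was 0.11, 0.07 and 0.03 in these comparisons, beside 0.002, 0.02 and 0.02 over all tested probe sets. These medians count CDH1 by both its probe sets. With each of the 5 genes read by its brightest probe set, they were 0.009, 0.04 and 0.04. The comparisons share arrays, so the values of a gene in them are not independent.

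**Figure D1:**
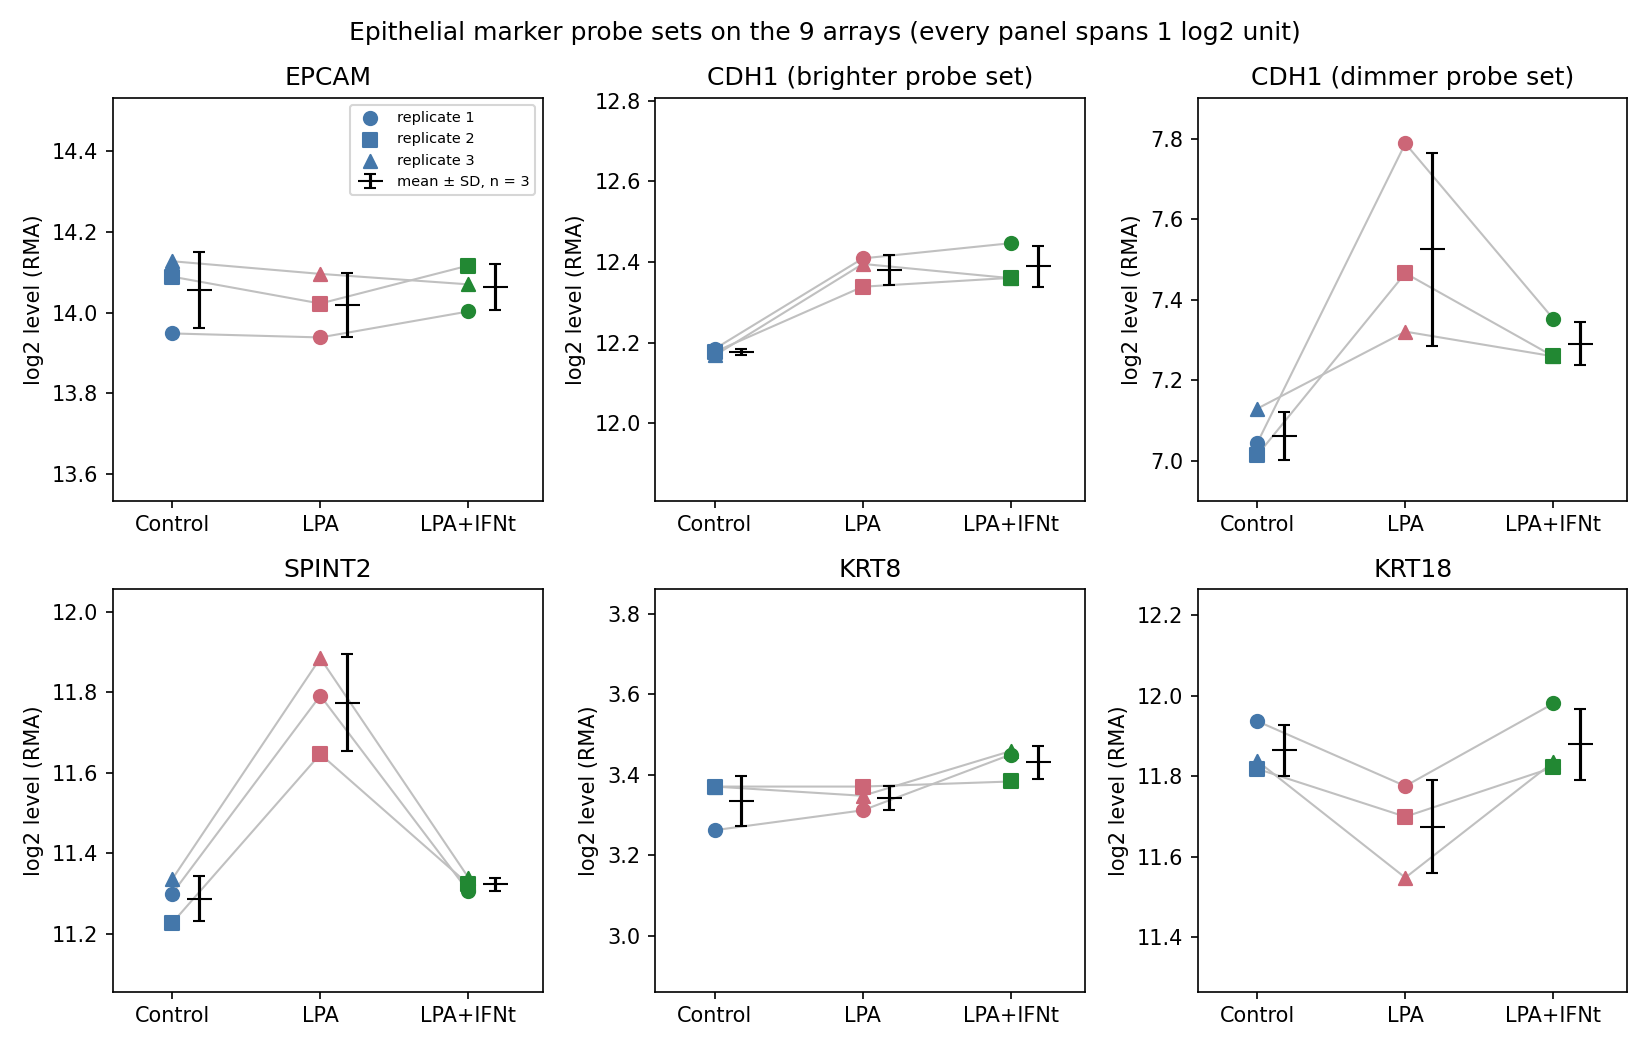
Log2 level (RMA) of each epithelial marker probe set on the 9 arrays, by group, with a marker shape and a grey line for each replicate number and the mean ± SD (n = 3) in black beside the points. SPINT2 stands higher on the 3 LPA arrays than on the other 6, the brighter CDH1 probe set is higher on all 6 treated arrays than in control, and EPCAM overlaps between all groups.

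SPINT2, the protease inhibitor gene, was the member that differed most between LPA and each of the other groups. In control it stood at 11.30, 11.23 and 11.34 for replicates 1, 2 and 3. With LPA the levels were 11.79, 11.65 and 11.88. With LPA+IFNt they were 11.31, 11.32 and 11.34. All 3 LPA arrays lay above the other 6, by a gap of 0.31 to the nearest control array and of 0.31 to the nearest LPA+IFNt array, while control and LPA+IFNt overlapped. The means were 11.29 ± 0.06 in control, 11.77 ± 0.12 with LPA and 11.32 ± 0.02 with LPA+IFNt (SD, n = 3). In a bulk sample such as these, fewer epithelial cells and less RNA per cell cannot be told apart.

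The difference of SPINT2 between LPA+IFNt and LPA was -0.45 (SE 0.06, 95% interval -0.59 to -0.31, limma adjusted p = 0.00457), so the LPA level was 1.37-fold that with both agents. It was lower in all 3 pairs of equal replicate number, by -0.49, -0.32 and -0.54. The call held in every alternative tried, with adjusted p of 0.00129 to 0.0469. Against control, the LPA value was higher by 0.49 (SE 0.06, 95% interval 0.35 to 0.63, a fold of 1.40), in 3 of 3 pairs, and its adjusted p of 0.0566 missed the threshold. Over its alternatives that p ran from 0.0124 to 0.247. It passed with dim probe sets left out (0.0473), with a trended and robust prior (0.0228), with probe sets averaged per gene (0.0452) and without LPA replicate 2 (0.0124). LPA+IFNt against control gave 0.04 (95% interval -0.10 to 0.17, adjusted p = 0.750).

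CDH1, the E-cadherin gene, had 2 probe sets, which were both higher on all 6 treated arrays than on any control array. On the brighter one the control levels were 12.18, 12.18 and 12.17. With LPA they were 12.41, 12.34 and 12.40. With LPA+IFNt they were 12.45, 12.36 and 12.36. The control arrays spread by 0.02, less than the gap of 0.15 to the nearest LPA array. The rise with LPA+IFNt against control was 0.21 (SE 0.03, 95% interval 0.13 to 0.29, fold 1.16, limma adjusted p = 0.0112), in 3 of 3 pairs. That call was lost with centring on spike-in controls (0.27, adjusted p = 0.219), with both CDH1 probe sets averaged (0.22, adjusted p = 0.0986) and without control replicate 2 (0.21, adjusted p = 0.0511), while the difference stayed as large. LPA against control gave 0.20 (95% interval 0.13 to 0.28, adjusted p = 0.0964), and LPA+IFNt against LPA 0.008 (95% interval -0.07 to 0.09, adjusted p = 0.894).

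The dimmer CDH1 probe set read 7.04, 7.01 and 7.13 in control. The LPA levels were 7.79, 7.47 and 7.32, which spread more widely than in the other groups. With LPA+IFNt the levels were 7.35, 7.26 and 7.26. LPA against control was 0.46 (SE 0.11, 95% interval 0.21 to 0.71, adjusted p = 0.232) and LPA+IFNt against control 0.23 (95% interval -0.02 to 0.48, adjusted p = 0.353). The difference between LPA+IFNt and LPA was -0.23 (95% interval -0.49 to 0.02, adjusted p = 0.327), where the brighter probe set stood at 0.008. No call was made on either, and the value of the brighter one turned to -0.01 without LPA replicate 2 and to -0.02 without LPA+IFNt replicate 1.

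EPCAM, the adhesion protein gene, showed overlapping groups throughout. Its control levels were 13.95, 14.09 and 14.13. With LPA they were 13.94, 14.02 and 14.10. With LPA+IFNt they were 14.00, 14.12 and 14.07. Differences were -0.04 for LPA against control (95% interval -0.18 to 0.11), 0.008 for LPA+IFNt against control (-0.13 to 0.15) and 0.04 for LPA+IFNt against LPA (-0.10 to 0.19), with adjusted p of 1.00, 0.943 and 0.70. The intervals leave room for EPCAM folds of 0.884 to 1.14 over the 3 comparisons, so the lack of a call does not show that EPCAM was unchanged.

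KRT18, the type I keratin gene, stood at 11.94, 11.82 and 11.84 in control. With LPA it stood at 11.78, 11.70 and 11.55. With LPA+IFNt it stood at 11.98, 11.82 and 11.84. The 3 LPA arrays lay below the other 6, by 0.04 to the nearest control array and 0.05 to the nearest LPA+IFNt array. LPA against control was -0.19 (SE 0.07, 95% interval -0.35 to -0.03, adjusted p = 0.518), and LPA+IFNt against LPA 0.20 (SE 0.07, 95% interval 0.04 to 0.37, adjusted p = 0.167). With the replicate number as a block, a fit that calls more of all probe sets higher (3.24% with LPA+IFNt against control and 3.38% against LPA), the second passed the threshold (adjusted p = 0.0378), the differences of the 3 pairs being 0.21, 0.12 and 0.29. LPA+IFNt against control was 0.01 (95% interval -0.15 to 0.18).

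KRT8, whose keratin pairs with that of KRT18 in the filament, was read near the floor. Its control levels were 3.26, 3.37 and 3.37. With LPA they were 3.31, 3.37 and 3.35. With LPA+IFNt they were 3.45, 3.38 and 3.46, all above the other 6 arrays by 0.01. The differences were 0.009 (95% interval -0.08 to 0.10), 0.10 (0.003 to 0.19) and 0.09 (-0.006 to 0.18) for LPA and for LPA+IFNt, each against control, and for LPA+IFNt against LPA, with adjusted p of 1.00, 0.283 and 0.323. This probe set held only 7 distinct values on 9 arrays, 1 of them on 3 arrays. A value repeated across arrays was seen in 35.8% of all tested probe sets.

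**Figure D2:**
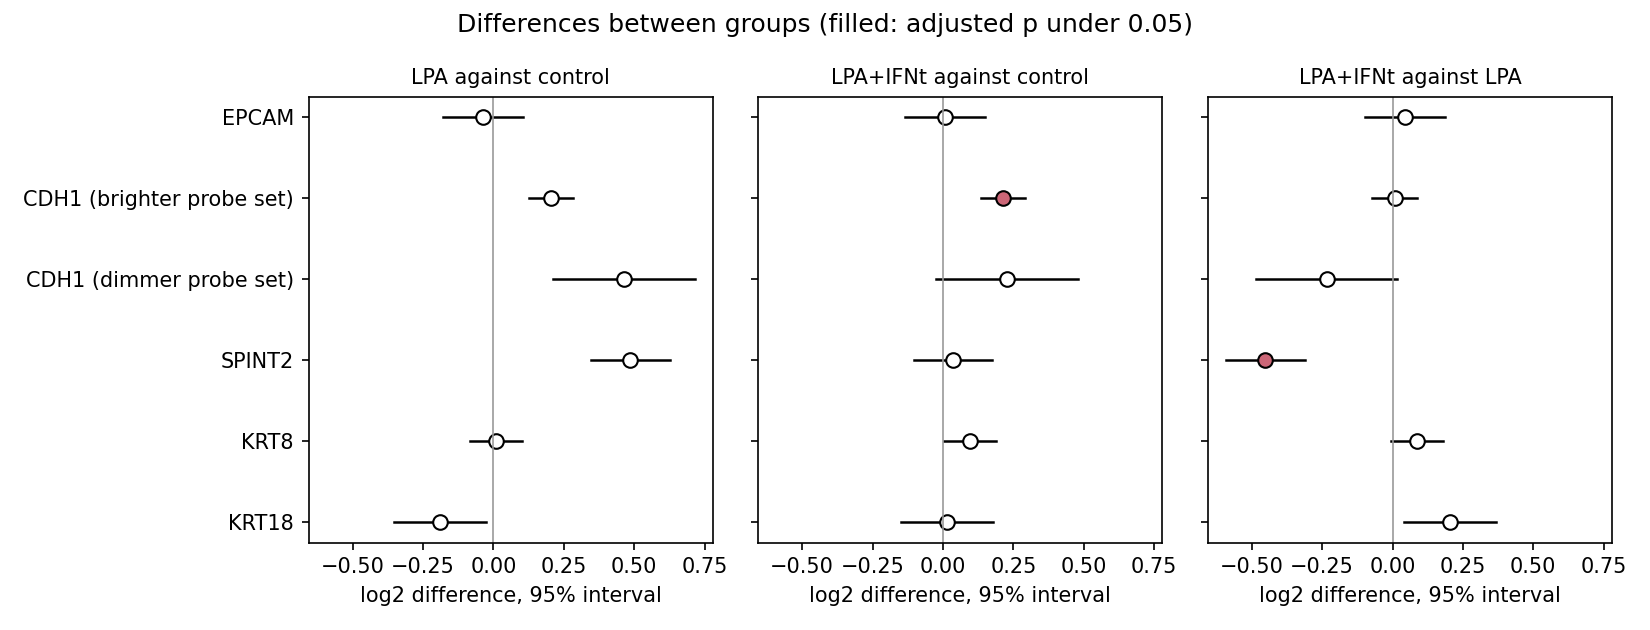
Difference between group means on the log2 scale for each epithelial marker probe set, with its 95% interval from limma, in the 3 comparisons; filled points have an adjusted p under 0.05. The filled points are CDH1 (0.21) for LPA+IFNt against control and SPINT2 (-0.45) for LPA+IFNt against LPA.

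Counted by separation of the groups, LPA and control did not overlap for 4 of the 6 probe sets, against 10% of all probe sets, with SPINT2 and the CDH1 pair higher and KRT18 lower. For LPA+IFNt against control 3 of 6 did not overlap, all higher (the CDH1 pair and KRT8), against 10.2% of all probe sets higher and 12.8% lower. For LPA+IFNt against LPA 3 of 6 did not overlap, KRT18 and KRT8 higher and SPINT2 lower, against 7.35% and 11.3%. The members did not share 1 pattern. SPINT2 stood highest and KRT18 lowest on the LPA arrays, and both overlapped with control on the LPA+IFNt arrays, CDH1 stood higher in both treated groups by its brighter probe set, and EPCAM overlapped between all 3 groups.

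Other genes of epithelial adhesion and of the filament system were read from lists, each gene by its brightest probe set. Of the other keratins of simple epithelia 4 of 5 were measured, 3 of them above the floor on every array, and 0 passed in any comparison. KRT19, a type I keratin, stood at 13.66 ± 0.12 in control, 13.60 ± 0.06 with LPA and 13.51 ± 0.09 with LPA+IFNt, and KRT7, a type II keratin, at 12.41 ± 0.07, 12.34 ± 0.02 and 12.51 ± 0.09 (SD, n = 3). KRT23, named after its values were seen, stood at 8.52 ± 0.06, 9.32 ± 0.43 and 9.30 ± 0.09, and its adjusted p was 0.237 for LPA and 0.0638 for LPA+IFNt against control, the latter 0.0352 with the replicate block. Of the keratins of stratified and basal epithelia 6 of 9 were measured, 4 of them above the floor on every array, and 0 passed. KRT10 stood at 8.43, 7.93 and 7.81 in the 3 groups, and KRT17 at 7.11, 7.03 and 6.96.

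Among the partners of E-cadherin and other adherens junction genes, 6 of 13 were measured. NECTIN2, which encodes an immunoglobulin-like adhesion protein of these junctions, rose by 0.61 with LPA+IFNt against control (SE 0.13, from 7.30 ± 0.16 to 7.92 ± 0.23, SD, n = 3, limma adjusted p = 0.0323), the only call of that list. It has 3 probe sets, of which 1 was called. Against LPA it stood higher by 0.49, with an adjusted p of 0.0682 and of 0.0111 with the replicate block. The catenin genes CTNNA1 and CTNNB1, whose products link E-cadherin to actin and which were named after their values were seen, had differences of 0.08 and -0.13 for LPA and of 0.01 and -0.06 for LPA+IFNt against control, with 0 calls. Of 11 measured tight junction genes, 10 of them above the floor on every array, 0 passed. F11R, which encodes a junctional adhesion molecule, stood at 11.63, 11.75 and 11.77 in control, LPA and LPA+IFNt, and the claudin gene CLDN6 at 11.20, 11.13 and 11.20. With the replicate block CLDN1, another claudin gene, at 10.26, 10.22 and 10.51, passed as higher with LPA+IFNt against control (adjusted p = 0.0234) and against LPA (0.0156).

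Of 5 measured desmosome genes, 1 rose and 1 fell with LPA+IFNt against control, both encoding plakophilins, plaque proteins that tie desmosomes to keratin filaments. PKP2 rose by 0.18 (SE 0.03, from 9.08 ± 0.04 to 9.26 ± 0.02, SD, n = 3, adjusted p = 0.0101) on 1 of its 2 probe sets. PKP1 fell by 0.85, from 6.77 ± 0.40 to 5.92 ± 0.09 (SE 0.18, adjusted p = 0.0385), and stood at 5.31 ± 0.11 with LPA, a difference from control of -1.45 (adjusted p = 0.0566).

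The protease side of SPINT2 gave 0 calls in 9 measured genes of 16, of which only 6 lay above the floor on every array. ST14, the gene of matriptase, stood at 9.19 ± 0.15 in control, 9.35 ± 0.17 with LPA and 9.33 ± 0.19 with LPA+IFNt (SD, n = 3). SPINT1, the related Kunitz inhibitor gene, named after its values were seen, stood at 5.46, 5.40 and 5.54, and its difference of LPA+IFNt against LPA was 0.14, where SPINT2 was at -0.45. F2RL1, which encodes a receptor that proteases switch on, stood at 11.60, 11.57 and 11.81, and its difference of 0.24 between LPA+IFNt and LPA passed only with the replicate block (adjusted p = 0.0489, without it 0.152). The median difference of the list was 0.01, 0.05 and -0.01 in the 3 comparisons, and the last of these turned to 0.01 with spike-in centring.

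Regulators of the epithelial state gave 0 calls by their brightest probe sets without the replicate block. Of the epithelial transcription and splicing factors 9 of 17 were measured, 8 of them above the floor on every array. KLF5 stood at 12.83, 12.78 and 12.81 and the splicing factor gene ESRP1 at 11.88, 11.76 and 11.81 in control, LPA and LPA+IFNt. Among mesenchymal cadherins and repressors of CDH1, 6 of 10 were measured. ZEB1, a repressor of CDH1, stood at 9.52 ± 0.05, 9.42 ± 0.18 and 8.91 ± 0.34 (SD, n = 3), with an adjusted p of 0.0926 for LPA+IFNt against control and of 0.149 against LPA, and it differed by -0.11 between LPA and control. With the replicate block both passed (0.0280 and 0.0456). CDH11, a mesenchymal cadherin gene, stood at 10.70, 10.78 and 10.48, and 1 of its 2 probe sets, the dimmer, passed for LPA+IFNt against LPA. With the block 4 of the 6 genes passed as lower with LPA+IFNt against control (CDH2, CDH11, ZEB1 and TCF3) and 3 against LPA (CDH11, ZEB1 and TCF3), in a fit that calls 5.44% and 6.28% of all probe sets lower. Of 8 measured luminal and gland products of the uterus, 5 of them above the floor on every array, 0 passed. With the block MUC1, the gene of a surface mucin, passed as higher with LPA+IFNt against control (0.40, adjusted p = 0.0288) and against LPA (0.48, 0.0157), and AGR2 against LPA (0.24, 0.0300). SPP1, the gene of osteopontin, stood at 14.21, 14.14 and 14.38. ANXA8L1, which the list holds in place of ANXA8, differed from control by -0.08 with LPA and by -0.008 with LPA+IFNt.

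**Figure D3:**
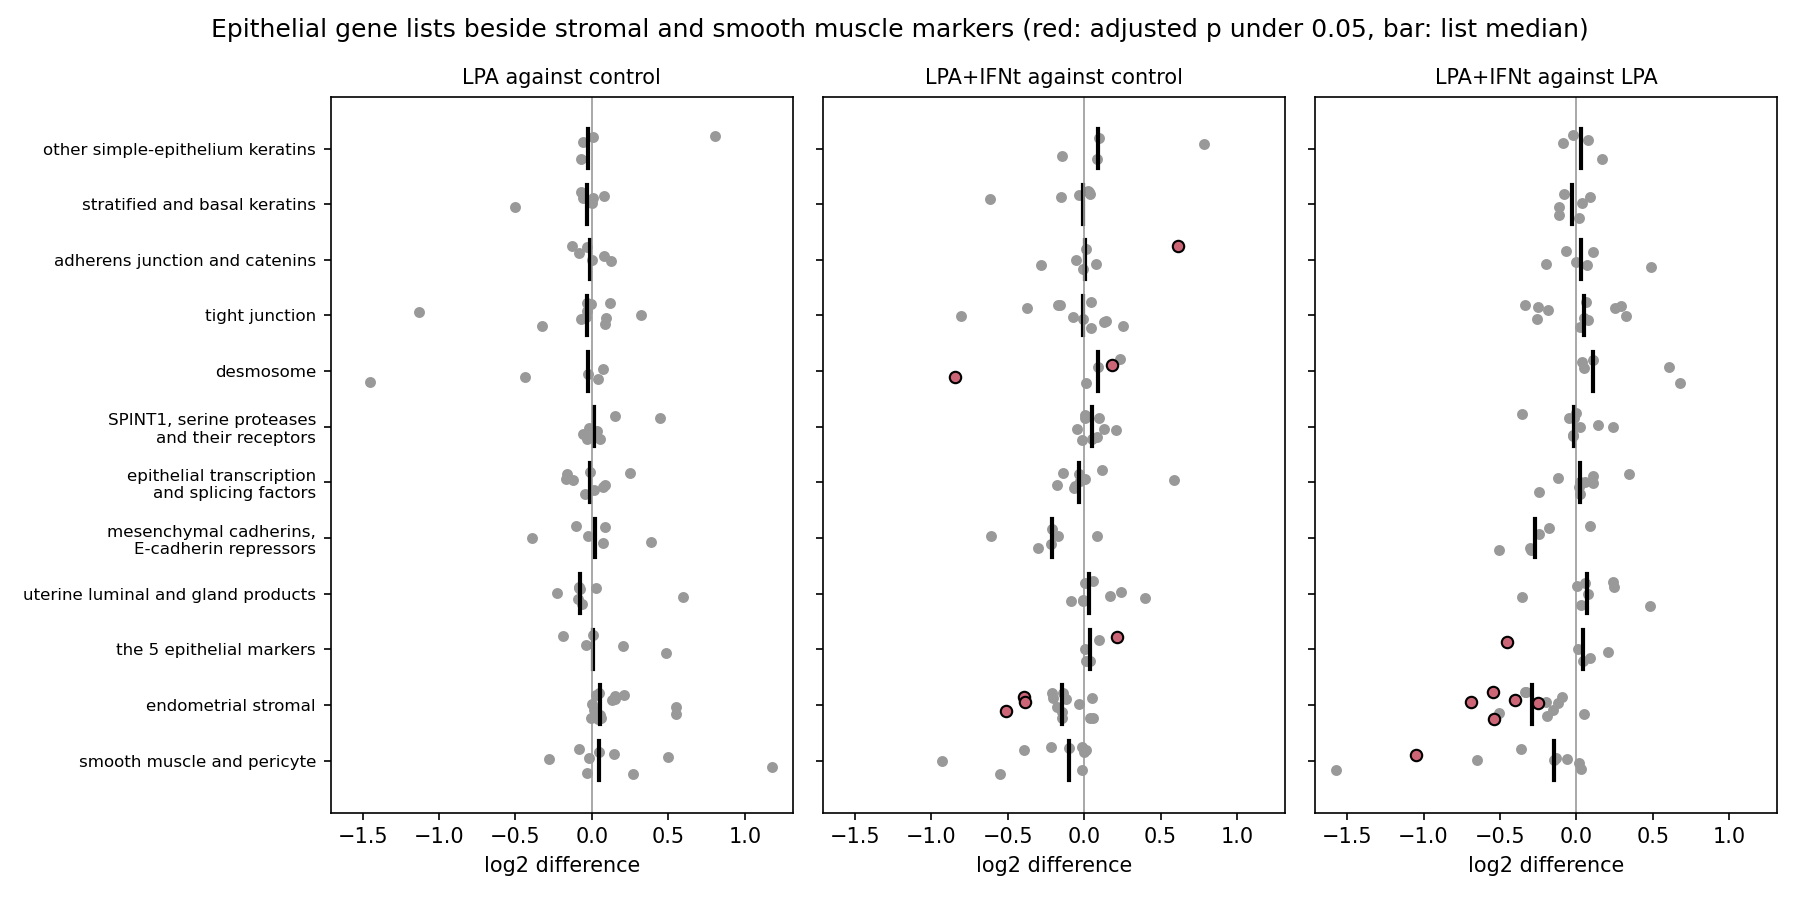
Differences of single genes (points) on the log2 scale in 9 gene lists, the 5 epithelial markers (brightest probe set of each) and 2 marker lists of other cells, with the list median as a bar and genes past an adjusted p of 0.05 in red. The stromal markers carry 3 lower calls from control to LPA+IFNt and 5 from LPA to LPA+IFNt, and the epithelial markers 1 call in each of these.

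Some markers of stromal cells passed in the contrasts in which CDH1 and SPINT2 did. Of 14 measured stromal markers, all above the floor, 3 fell from control to LPA+IFNt and 5 from LPA to LPA+IFNt, and 0 rose. Their medians were -0.15 and -0.29, beside 0.04 and 0.04 for the 5 epithelial markers. With spike-in centring they were -0.08 and -0.26, beside 0.10 and 0.07. COL3A1 fell by 0.51 (from 14.72 to 14.21), FBN1 by 0.39 and COL1A1, on 1 of its 2 probe sets, by 0.39 against control. THY1 fell by 0.69 against LPA, where SPINT2 fell too. In that comparison COL1A1, on 1 of its 2 probe sets, fell by 0.55, COL3A1 by 0.54, FBN1 by 0.40 and COL1A2 by 0.25. THY1 stood at 7.11, 7.66 and 6.97 in control, LPA and LPA+IFNt. Like SPINT2 it was highest with LPA, by 0.55 over control (limma adjusted p = 0.0713), and control and LPA+IFNt overlapped. COL1A1, COL3A1 and FBN1 differed by 0.15, 0.03 and 0.02 between LPA and control. With the replicate block the count against LPA was 4, without COL1A2. The summed linear signal of the 14 markers was 129922 to 140313 in control, 134643 to 148126 with LPA and 116197 to 119493 with LPA+IFNt, in arbitrary units. That of the 5 epithelial markers was 26908 to 28752, 28194 to 29682 and 28579 to 29215. EPCAM alone ran from 15696 to 17895 over the arrays, so it made up most of the epithelial sum. The part of these stromal differences in the CDH1 and SPINT2 values was not tested.

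The remaining marker lists held few calls without the replicate block, though the summed signal of the smooth muscle list differed between the groups. Of 9 smooth muscle and pericyte markers 6 lay above the floor. The list's sum ran from 1798 to 2104 in control, 2162 to 2968 with LPA and 1382 to 1600 with LPA+IFNt. ACTA2, with the highest level of the list, weighed most in this sum. The list's median difference was 0.05 for LPA against control, -0.10 for LPA+IFNt against control and -0.14 for LPA+IFNt against LPA. ACTA2 fell with LPA+IFNt against LPA (-1.05, limma adjusted p = 0.00853), and stood at 10.30, 10.80 and 9.75 in control, LPA and LPA+IFNt. With the replicate block 4 smooth muscle markers were lower against LPA and 1 against control, and the leukocyte marker CD14 was lower against both. Of 16 measured leukocyte markers 5 lay above the floor on every array (CD14, LCP1, LAPTM5, PTPRC and CD68). The sum of the 16 was 285 to 427 over the 9 arrays. In control, LPA and LPA+IFNt, CD14 stood at 7.18, 7.24 and 6.45, LCP1 at 6.00, 6.59 and 6.29, and PTPRC at 3.69, 4.44 and 3.72. CD53, called higher with LPA+IFNt against both other groups, lay at 2.75 in control, under the floor, at 2.86 with LPA and at 4.01 with LPA+IFNt, and CD3E, ITGAM and CD79A lay under it in all groups. None of the 10 endothelial (ENG and TEK highest), 2 mesothelial (MSLN, UPK3B) or 5 red cell markers (AHSP and HBA highest) lay above the floor on every array, and 0 of them passed. The part of the smooth muscle and leukocyte values in the member results was not tested.

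A sign of RNA quality overlapped between the groups. The difference of the 3′ and 5′ probe sets of the GAPD control was 0.55 on control replicate 1 and 0.02 to 0.38 on the other 8 arrays. Without control replicate 1, CDH1 stood at 0.22 for LPA+IFNt against control (adjusted p = 0.0397), and SPINT2 at -0.45 for LPA+IFNt against LPA (0.0109) and at 0.49 for LPA against control (0.175).

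**Figure D4:**
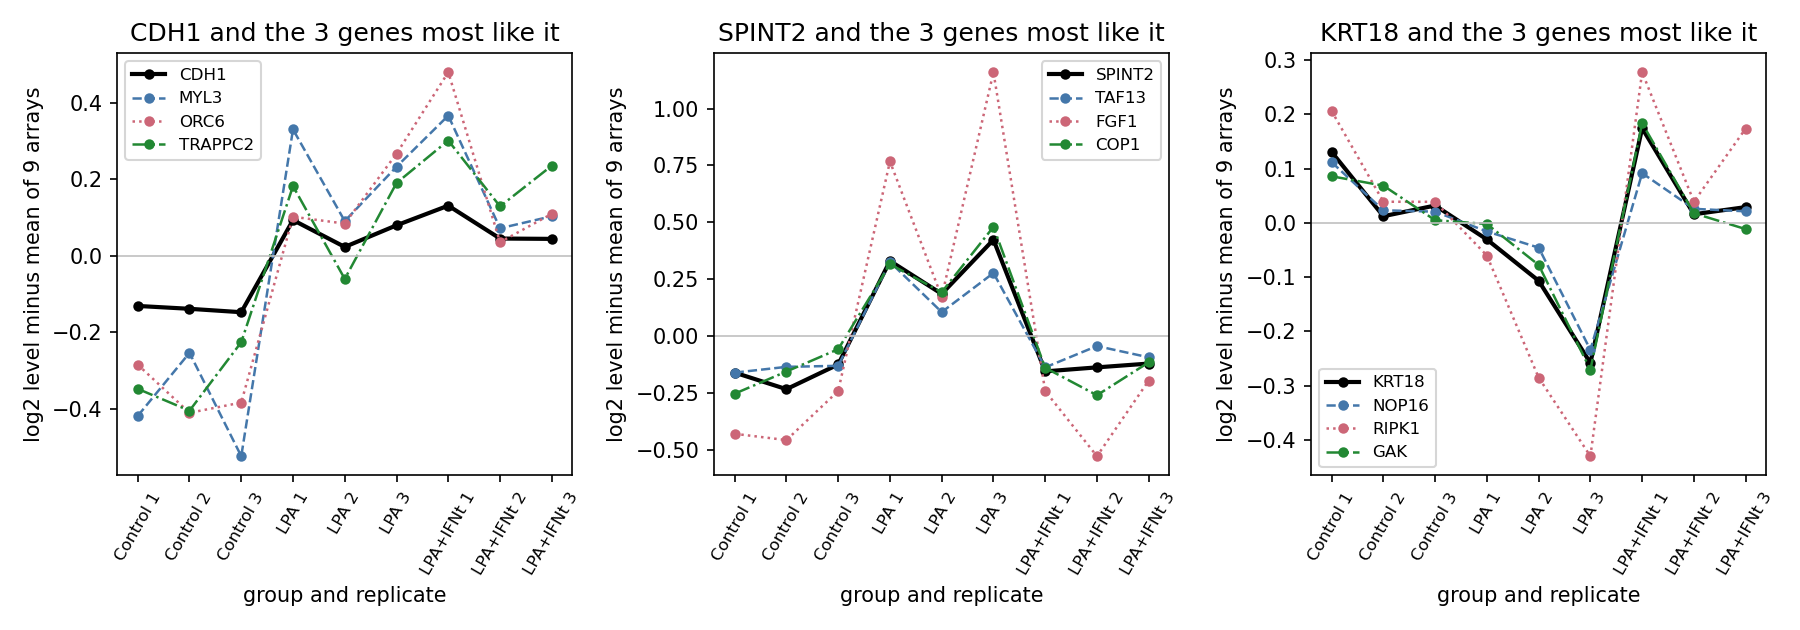
Log2 level minus the mean of the 9 arrays for CDH1 (brighter probe set), SPINT2 and KRT18 (black) and the 3 named genes whose values had the highest Pearson r with each; lines only join the points of a gene, and replicates have no order. The SPINT2 panel is high on the 3 LPA arrays alone, the CDH1 panel low on the control arrays, and the KRT18 panel low on the LPA arrays.

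Genes of like pattern were sought for each member among 8787 named probe sets above the floor on every array, by Pearson r over the 9 arrays. The r given is the highest of that many and is a description only. For SPINT2 these were TAF13, a subunit gene of the general transcription factor TFIID (r = 0.969), the growth factor gene FGF1 (0.968) and COP1, the gene of a ubiquitin ligase (0.967). With LPA+IFNt against LPA they stood at -0.33, -1.02 and -0.50, a direction that their choice by likeness to SPINT2 largely fixes. For CDH1 they were the myosin light chain gene MYL3 (0.975), ORC6, of the origin recognition complex (0.961), and TRAPPC2, of a vesicle tethering complex (0.951), which stood at 0.58, 0.57 and 0.55 with LPA+IFNt against control, likewise by their choice. For KRT18 they were NOP16 (0.968), the kinase gene RIPK1 (0.967) and GAK (0.963). EPCAM was most like KLF10 (0.954), DERA (0.922) and PFDN4 (0.911), and KRT8 most like NES (0.969), SLC7A6OS (0.928) and ERRFI1 (0.921). No other member was among these 15 genes.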

How the data were processed

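RNA from 9 pooled co-culture samples, 3 for each of 3 groups, was amplified and hybridised to Affymetrix bovine arrays, per the labels' protocols. The deposited values are log2 expression values made by the authors with Partek and RMA, per the submitters' processing notes; the sources used here name no versions. The log2 base was taken from the range of the values. Probe sets were named from the platform's annotation: 13292 of 24016 tested probe sets had 1 symbol, 86 several and 10638 none, and 112 control probe sets were left out. Of 13318 annotated probe sets with 1 symbol, 13283 matched RefSeq (ARS-UCD2.0) by gene ID.

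Groups were compared in R 4.3.3 with the moderated 2-sided test of limma 3.58.1 (all 9 arrays in 1 fit), with Benjamini-Hochberg adjustment over all 24016 probe sets and a threshold of 0.05. The code was tested on simulated data. Precision is limited by the number of arrays, 3 a group. Same-numbered arrays of different groups deviated together from their group means (r of 0.19 to 0.49 in 9 pairs, against -0.47 to 0.14 in 18 pairs of different number), so a fit with the replicate number as a block was made. This pairing comes from the data, and the labels do not say what a number shares. Other alternatives were centring on spike-in controls, leaving out dim probe sets, only the groups compared, a trended and robust prior, averaged probe sets and leaving out each array.

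The members and lists were chosen with earlier results of these data known. All member probe sets are named. From each list up to 4 genes past the threshold with the largest change are named, or, where none passed, the 2 with the highest level, and for each member the 3 genes most like it. Genes that passed only with the replicate block, and others outside this rule, were named after their values were seen.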

Additional observations from a re-analysis of the deposited data

How the results depend on the processing

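For LPA against control the number of member probe sets called was 0, and became 1 (SPINT2) with dim probe sets left out, with the trended and robust prior and with probe sets averaged per gene; leaving out single arrays gave 0 to 1, the call coming without LPA replicate 2. For LPA+IFNt against control it was 1 (CDH1), and 0 with spike-in centring and with averaged probe sets; leaving out single arrays gave 0 to 1, the loss coming without control replicate 2. For LPA+IFNt against LPA it was 1 (SPINT2), and 2 with the replicate block (KRT18 added), which changed no other call of a member; leaving out single arrays kept it at 1. The brighter CDH1 probe set turned to -0.11 for LPA+IFNt against LPA when averaged with the dimmer one, the average being that of both probe sets. Leaving out single arrays turned the sign of differences near 0: EPCAM ran from -0.089 to 0.0043 (LPA against control) and -0.045 to 0.045 (LPA+IFNt against control), KRT8 from -0.027 to 0.027 (LPA against control), KRT18 from -0.036 to 0.051 (LPA+IFNt against control) and CDH1 from -0.021 to 0.023 (LPA+IFNt against LPA). The cause of these moves was not tested. Over all probe sets, calls for LPA against control numbered 17, and 11 with the replicate block, 50 with spike-in centring, 37 without dim probe sets, 1 with only the groups compared, 50 with the trended and robust prior, 28 with averaged probe sets and 0 to 169 with single arrays left out (0 without control replicate 2 or LPA replicate 1, 169 without LPA replicate 2). For LPA+IFNt against control they numbered 1282, and 2085 with the replicate block and 791 without control replicate 2. For LPA+IFNt against LPA they numbered 1571, and 2320 with the replicate block and 2204 without LPA replicate 2. That count fell to 1004 with only the groups compared and to 954 without LPA replicate 1. Spike-in centring moved the share of calls that were higher from 70.6% to 50% for LPA against control and from 46.4% to 60.6% for LPA+IFNt against control. The low signal of KRT8 limits what its probe set can show.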

Other observations

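The following values were picked out after they were seen. The KRT8 probe set has an identifier that ends in A1, while those of the other members end in S1. Among named probe sets, 58.3% of 3473 with the ending A1 and 69.0% of 8465 with the ending S1 lay above the floor on every array, as KRT8 itself did. A mean level above that of KRT8 was seen in 53.2% of those with A1 and 67.1% of those with S1. Whether the ending bears on the low KRT8 signal was not tested. CLDN10, a claudin gene of tight junctions, stood at 6.64 ± 0.13 in control, 5.51 ± 0.85 with LPA and 5.83 ± 0.23 with LPA+IFNt (SD, n = 3), and neither treated group passed the threshold against control (limma adjusted p = 0.463 and 0.342). LTF, the lactoferrin gene of uterine glands, varied more within groups than any member, at 9.18 ± 0.86, 9.77 ± 1.82 and 9.42 ± 0.63.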
